A study of Homo sapiens with 12 samples.

Results

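The insulin-like growth factor binding proteins were followed in the human esophageal squamous carcinoma lines TE10 and Kyse410. The family was taken as its 7 named genes, IGFBP1 to IGFBP7, found by symbol among the 57820 gene identifiers that were counted. Of these 7 genes, 3 (IGFBP3, IGFBP6 and IGFBP7) had enough reads to be tested, among 16060 genes tested in all. The other 4 had 0 to 8 reads over all libraries. The 4 groups sequenced were TE10 with an shRNA against UHRF1, TE10 with a scramble control, Kyse410 with the shRNA against UHRF1 and Kyse410 with a scramble control. All carried a stably introduced construct, and each group had 3 libraries of polyadenylated RNA, 12 libraries in all. The number of hairpins is not stated, and the labels do not tell whether separate cultures gave the 3 libraries, so the spread behind each p-value may be technical.

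The binding proteins are secreted carriers of the insulin-like growth factors IGF-I and IGF-II. They hold the factors in the circulation and around cells, keep them from the receptor IGF1R or deliver them to it, and are cut by proteases that set the factors free. IGFBP3 is the main carrier in serum, IGFBP6 binds IGF-II in preference to IGF-I, and IGFBP7 binds the factors only weakly and is found in the matrix around vessels and epithelia. UHRF1, the target of the hairpin, recognises CG pairs methylated on a single strand after replication and recruits the enzyme that methylates the other strand.

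The stretches just before the gene starts are shown for 3 members that differ in level, since the protein knocked down acts on CG pairs. They are the 250 bases before the start in RefSeq on GRCh38.p14, 5′ to 3′ on the strand of the gene, with CG pairs in capitals. IGFBP3 is the member that differed most between the lines, IGFBP6 had the highest level per length and IGFBP4 was close to silent. They lie at chr7:45921273-45921522 on the minus strand (IGFBP3), chr12:53097417-53097666 on the plus strand (IGFBP6) and chr17:40443200-40443449 on the plus strand (IGFBP4).
IGFBP3: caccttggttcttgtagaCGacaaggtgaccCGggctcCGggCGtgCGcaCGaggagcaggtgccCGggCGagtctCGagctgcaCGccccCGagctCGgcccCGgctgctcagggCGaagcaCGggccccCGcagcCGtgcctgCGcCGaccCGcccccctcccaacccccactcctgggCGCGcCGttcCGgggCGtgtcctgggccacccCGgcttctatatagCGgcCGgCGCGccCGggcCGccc
IGFBP6: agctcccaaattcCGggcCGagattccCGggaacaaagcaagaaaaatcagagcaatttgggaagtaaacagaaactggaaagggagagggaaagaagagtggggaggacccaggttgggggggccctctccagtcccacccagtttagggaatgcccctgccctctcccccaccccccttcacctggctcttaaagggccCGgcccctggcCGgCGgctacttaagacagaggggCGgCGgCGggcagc
IGFBP4: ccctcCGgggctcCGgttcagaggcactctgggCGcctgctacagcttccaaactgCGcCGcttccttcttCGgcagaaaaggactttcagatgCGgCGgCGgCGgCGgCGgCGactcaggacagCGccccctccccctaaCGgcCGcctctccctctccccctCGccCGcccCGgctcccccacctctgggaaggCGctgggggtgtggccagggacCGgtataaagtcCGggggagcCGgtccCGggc
The IGFBP3 stretch held 32 CG pairs, which is percentile 90.5 of the 35116 promoters in the table, whose median was 11. The IGFBP4 stretch held 24 CG pairs and the IGFBP6 stretch 9, at the percentiles 76.3 and 45.9 of the table. The near-silent IGFBP5 had 8 CG pairs before its start (percentile 43.7), and IGFBP2, likewise near-silent, had 7, 22 and 4 before 3 annotated starts. Among the 5 members with an entry, expressed and near-silent ones both lay on both sides of that median. The expressed ones there were IGFBP3 and IGFBP6 alone, as IGFBP7 had no entry, nor had IGFBP1. Methylation was not measured in these libraries.

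Short motifs were looked for in the same stretches, each together with its reverse complement. TATATA, which is its own reverse complement and can overlap TATAAA, was found once before IGFBP3 and in 3.73% of all promoters. TATAAA was found once before IGFBP4 and in 10.7% of promoters. GGGCGG, the core of the GC box, was found 2 times before IGFBP3 and 1 time each before IGFBP6 and IGFBP4, against 42.6% of promoters with at least 1 match. GTAAACA, the core that forkhead factors bind, was found once before IGFBP6 and in 2.98% of promoters. Sequences matched 5 of the 7 members by symbol, IGFBP2 to IGFBP6.

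UHRF1 itself was lower with the hairpin in each line. In TE10 it had 82.1, 86.8 and 88.9 CPM (the reads of a gene over the TMM-scaled total of its library) with shUHRF1, against 173, 179 and 184 CPM with scramble. In Kyse410 it had 42.1, 43.5 and 41.9 CPM with shUHRF1, against 101, 101 and 95.1 CPM with scramble. The 3 shUHRF1 libraries lay below the 3 scramble libraries in both lines, as for 23.8% of the genes tested in TE10 and 30% in Kyse410. Reads assigned to genes ran from 7857662 to 12005229 a library. Of the squamous and epithelial markers, TP63 averaged 62.4 to 108 CPM over the 4 groups and KRT13 averaged 184 to 1072 CPM. KRT5, a basal keratin, averaged 8.05 CPM in TE10 shUHRF1 and 67.4 CPM in TE10 scramble, and averaged 1.37 CPM in Kyse410 shUHRF1 and 1.14 CPM in Kyse410 scramble. SOX2 averaged under 1 CPM in every group. All 8 blood markers had at most 10 reads in any library. Of 12 fibroblast and endothelial markers, 9 or 10 had at most 10 reads in any library of a group, and the fibroblast genes DCN, LUM and COL3A1 had 0 reads in 3 of the 4 groups and at most 5 reads in TE10 shUHRF1.

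IGFBP6 and IGFBP7 RNA was lower with the UHRF1 hairpin in both lines. IGFBP3 RNA was higher with the hairpin in Kyse410 and did not pass the test in TE10. IGFBP7 fell to 52.4% of its control level in TE10 and to 55.5% in Kyse410, and IGFBP6 fell to 69.0% and 63.0% in the same order of lines. IGFBP1, IGFBP2, IGFBP4 and IGFBP5 were close to 0 reads in all 4 groups.

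**Figure D1:**
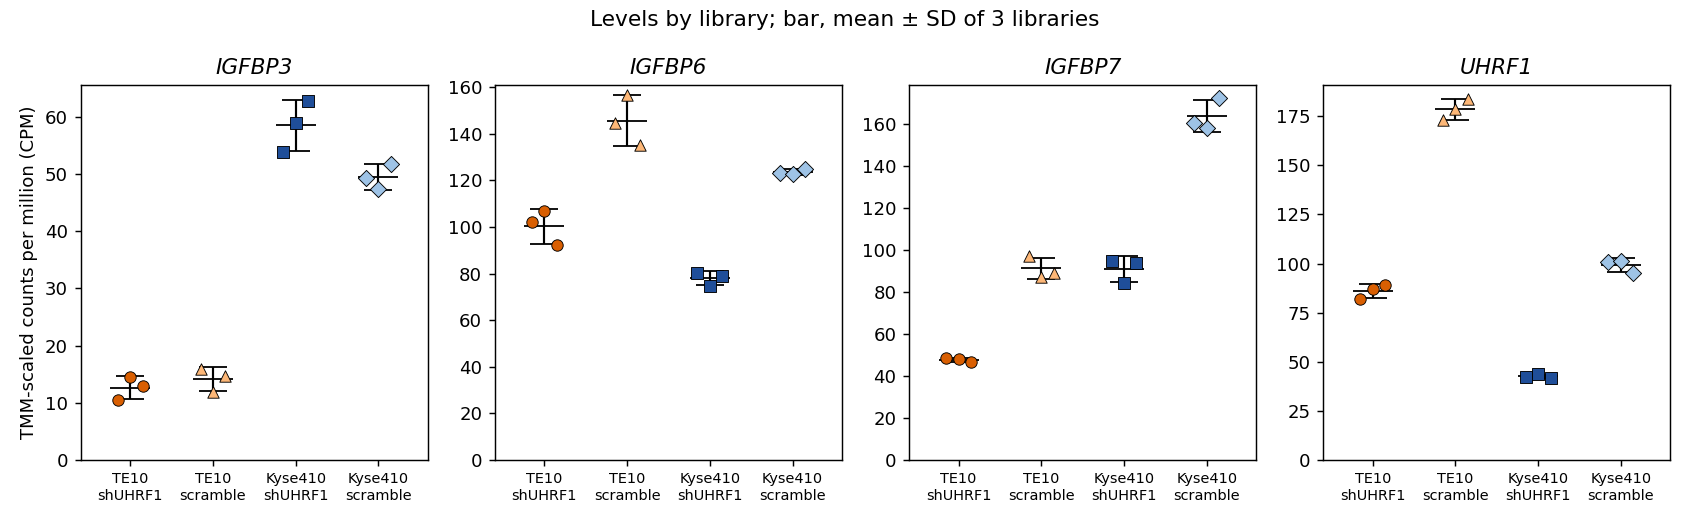
TMM-scaled CPM of IGFBP3, IGFBP6, IGFBP7 and the targeted gene UHRF1 in each of the 12 libraries, with the mean and SD of 3 libraries as bars; the vertical axis of each panel starts at 0. IGFBP6 and IGFBP7 lie lower with shUHRF1 than with scramble in both lines, while IGFBP3 differs mainly between the lines, at 47.4 to 62.8 CPM in Kyse410 and 10.4 to 15.9 CPM in TE10.

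IGFBP7 (ENSG00000163453.7), a secreted protein that gathers in the matrix, had 48.4, 47.8 and 46.7 CPM in TE10 with shUHRF1, against 97.0, 87.3 and 89.0 CPM with scramble. All 3 shUHRF1 libraries were lower than all 3 scramble libraries, as were those of 23.8% of the genes tested, while 23.1% had them all higher. The means were 47.6 ± 0.838 CPM with shUHRF1 and 91.1 ± 5.23 CPM with scramble (SD, n = 3 each). The log2 fold change was −0.93 ± 0.0655 (SE), with a 95% interval of −1.06 to −0.80 (edgeR quasi-likelihood adjusted p = 2.64e-17). In Kyse410 IGFBP7 had 94.7, 84.0 and 93.8 CPM with shUHRF1, against 161, 158 and 172 CPM with scramble. The groups did not overlap there either, as for 30% of genes with the shUHRF1 libraries lower and 25.6% with them higher. The log2 fold change in Kyse410 was −0.85 ± 0.0527, with an interval of −0.96 to −0.74 (edgeR adjusted p = 1.12e-19). In bulk RNA, fewer cells that express a gene and less of its RNA per cell cannot be told apart.

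IGFBP6 (ENSG00000167779.3), the carrier with a preference for IGF-II, had 102, 107 and 92.1 CPM in TE10 with shUHRF1, against 145, 157 and 135 CPM with scramble. The highest shUHRF1 library was below the lowest scramble library, as for 23.8% of the genes tested. The means were 100.4 ± 7.54 CPM with shUHRF1 and 146 ± 10.9 CPM with scramble (SD, n = 3 each), a log2 fold change of −0.53 ± 0.0564 with an interval of −0.65 to −0.42 (edgeR adjusted p = 2.74e-11). In Kyse410 IGFBP6 had 80.2, 74.5 and 79.1 CPM with shUHRF1, against 123, 123 and 125 CPM with scramble. These groups stood apart, with shUHRF1 lower as for 30% of the genes tested, and the scramble libraries were nearly equal. The log2 fold change was −0.67 ± 0.0555, with an interval of −0.78 to −0.56 (edgeR adjusted p = 6.45e-15).

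IGFBP3 (ENSG00000146674.10), the serum carrier that also binds the cell surface, had 10.4, 14.4 and 12.9 CPM in TE10 with shUHRF1, against 15.9, 11.9 and 14.6 CPM with scramble. These groups overlapped. The log2 fold change of −0.17 ± 0.129 did not pass the test (edgeR adjusted p = 0.33), and its 95% interval of −0.43 to 0.09 allows a fall to 74.5% as well as a rise to 107% of the control level. In Kyse410 IGFBP3 had 53.9, 59.0 and 62.8 CPM with shUHRF1, against 49.3, 47.4 and 51.8 CPM with scramble. Every shUHRF1 library lay above every scramble library, as for 25.6% of the genes tested, here by a narrow gap. IGFBP3 rose to 118% of the control level in Kyse410 (95% interval 106 to 131%), a log2 fold change of 0.24 ± 0.0763 (edgeR adjusted p = 0.00756). Without Kyse410 shUHRF1 library 3, the highest of its group, the log2 fold change was 0.19 and no longer passed (edgeR adjusted p = 0.0659).

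IGFBP1, best known as an insulin-regulated product of liver and decidua, had 0 reads in all 12 libraries. With 3 reads taken as the limit that a count of 0 allows, its level was under 0.398 CPM in the smallest library and under 0.0264 CPM over all libraries together. IGFBP2 had 8 reads, with 0, 1 and 0 in TE10 shUHRF1, 2, 2 and 1 in TE10 scramble, 0, 1 and 1 in Kyse410 shUHRF1 and 0 in each Kyse410 scramble library. IGFBP4, the substrate of the protease PAPP-A, had 4 reads in 4 libraries. IGFBP5, which binds matrix, had 2 reads, both in Kyse410 shUHRF1 library 2. These members did not pass the filter on low counts, and without that filter IGFBP2, IGFBP4 and IGFBP5 were not called in any comparison. A change between groups was not detectable at this depth for these 4 genes, and the limit given covers counting error alone.

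**Figure D2:**
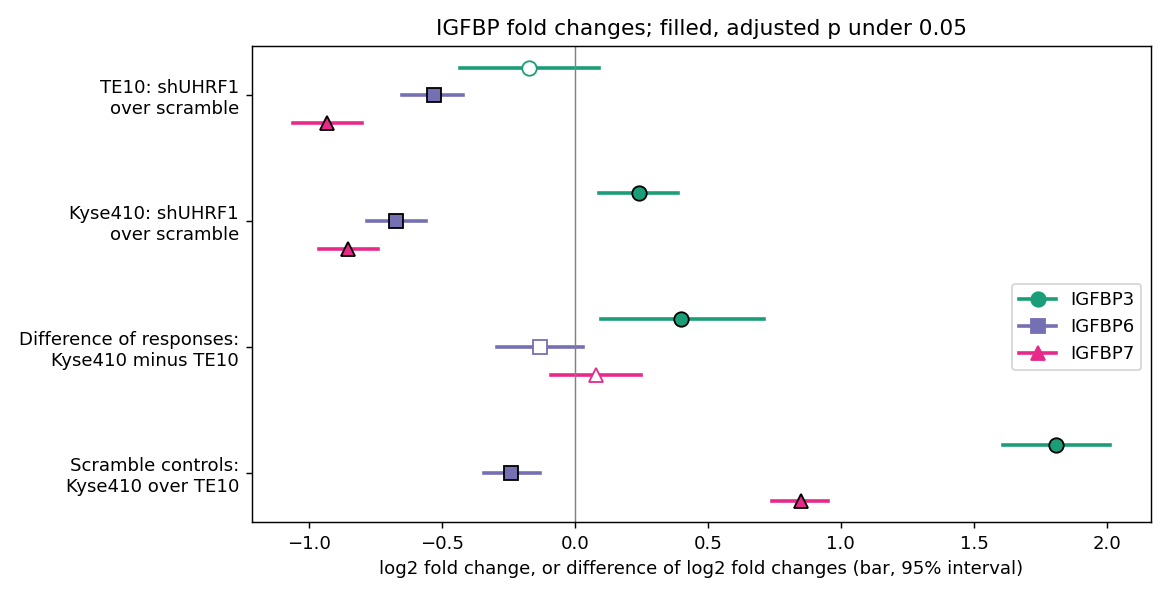
Log2 fold changes of the 3 tested members (horizontal axis) with 95% intervals, in each knockdown comparison, for the difference of the responses and between the scramble controls. Filled symbols passed an adjusted p of 0.05. IGFBP6 and IGFBP7 lie left of 0 in both knockdown comparisons, and the widest change is that of IGFBP3 between the lines, at 1.81.

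In TE10, 2 of the 3 tested members were called, both lower with shUHRF1, where 38.8% of all genes tested were called either way and 20% were called lower. In Kyse410, 2 members were called lower and 1 higher, where 49.3% of all genes were called, 26.7% lower and 22.6% higher. IGFBP6 and IGFBP7 were lower in both lines, as were 9.03% of the genes tested. IGFBP7 stood at percentile 5.7 of all log2 fold changes in TE10 and 3.7 in Kyse410, counted from the strongest falls. IGFBP6 stood at percentile 12.8 in TE10 and 6.6 in Kyse410, and IGFBP3 at 32.2 and 73.2. The median absolute log2 fold change of called genes was 0.42 in TE10 and 0.43 in Kyse410, so IGFBP6 and IGFBP7 changed by more than the median called gene in each line and IGFBP3 by less in Kyse410.

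**Figure D3:**
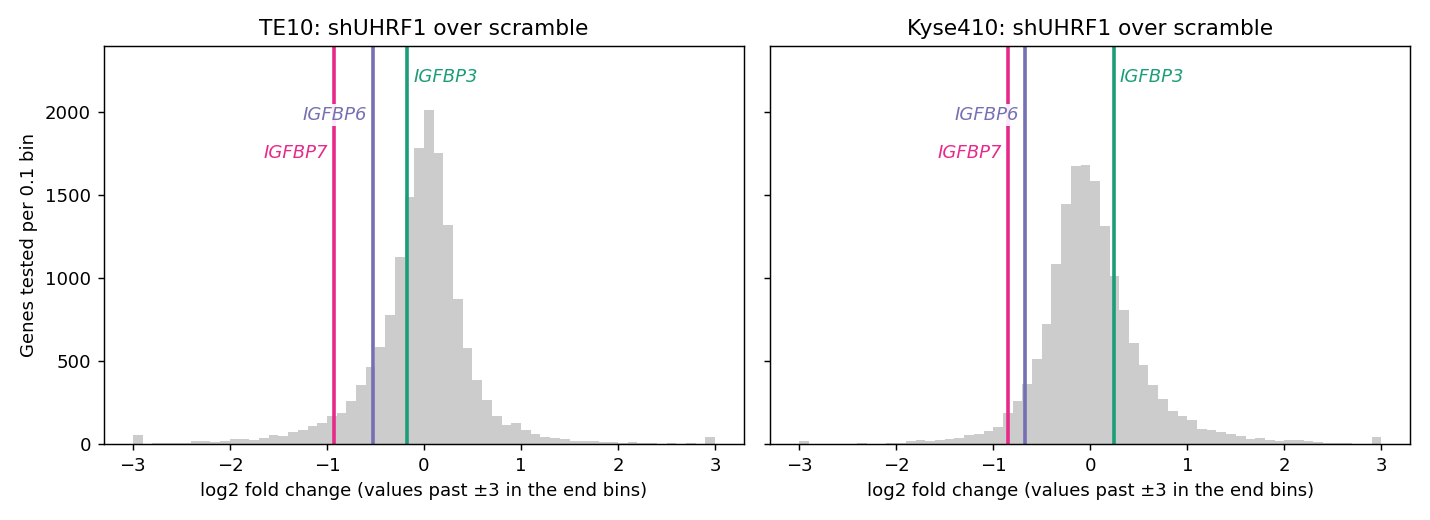
Histogram of the log2 fold changes of all 16060 genes tested (bins of 0.1) with shUHRF1 over scramble in TE10 on the left and Kyse410 on the right; vertical lines mark the 3 tested members. IGFBP7 lies in the left tail in both lines, at −0.93 and −0.85, and IGFBP3 lies near the middle, at −0.17 and 0.24.

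Other features of the libraries moved with the hairpin in the same samples. Mitochondrially encoded transcripts took 4.95 to 5.73% of gene reads in TE10 shUHRF1 and 5.95 to 6.05% in TE10 scramble, and 3.79 to 4.0% in Kyse410 shUHRF1 and 2.3 to 2.43% in Kyse410 scramble. The summed level of the fibroblast and endothelial markers was 62.0 to 71.2 CPM in TE10 shUHRF1 and 54.9 to 59.0 CPM in TE10 scramble, and 242 to 267 CPM in Kyse410 shUHRF1 and 139 to 149 CPM in Kyse410 scramble. Nearly all of that sum came from 2 genes that were called higher in both lines, the collagen gene COL1A1 and the endothelial cadherin gene CDH5. The third marker with enough reads to be tested, the receptor gene PDGFRB, went the other way, at a log2 fold change of −2.25 ± 0.367 in TE10 (edgeR adjusted p = 1.42e-06) and −0.74 ± 0.226 in Kyse410 (edgeR adjusted p = 0.00517). The summed squamous and epithelial markers were at 4427 to 4689 CPM in TE10 shUHRF1 and 4691 to 4749 CPM in TE10 scramble, and at 3487 to 3688 CPM in Kyse410 shUHRF1 and 2516 to 2610 CPM in Kyse410 scramble. The part of these shifts in the IGFBP results was not tested.

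The response of IGFBP3 differed between the lines, by 0.40 ± 0.15 on the log2 scale for Kyse410 minus TE10, with an interval of 0.10 to 0.71 (edgeR adjusted p = 0.0275; 38.9% of all genes tested were called for such a difference, 19% higher and 19.9% lower). This call rested on few libraries. It was lost without TE10 shUHRF1 library 1 (difference 0.28, edgeR adjusted p = 0.169), TE10 scramble library 1 (0.32, adjusted p = 0.121), TE10 scramble library 3 (0.37, adjusted p = 0.0751), Kyse410 shUHRF1 library 3 (0.36, adjusted p = 0.0665) or Kyse410 scramble library 2 (0.38, adjusted p = 0.0533). For IGFBP6 and IGFBP7 a difference in response between the lines was not called. The interval for Kyse410 minus TE10 was −0.29 to 0.03 for IGFBP6 (edgeR adjusted p = 0.19) and −0.09 to 0.25 for IGFBP7 (edgeR adjusted p = 0.472).

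Between the scramble controls all 3 tested members differed, with 2 higher and 1 lower in Kyse410, where 73.7% of all genes tested were called, 36.7% higher and 37.1% lower. IGFBP3 averaged 49.5 ± 2.20 CPM in Kyse410 scramble and 14.1 ± 2.05 CPM in TE10 scramble (SD, n = 3 each), 3.51 times as much (95% interval 3.06 to 4.02), a log2 fold change of 1.81 ± 0.0982 (edgeR adjusted p = 6.68e-23). IGFBP7 averaged 164 ± 7.63 CPM in Kyse410 scramble and 91.1 ± 5.23 CPM in TE10 scramble, 1.80 times as much (1.67 to 1.94), with a log2 fold change of 0.85 ± 0.0541 (edgeR adjusted p = 6.07e-20). IGFBP6 was lower in Kyse410, at 124 ± 1.17 CPM in Kyse410 scramble and 146 ± 10.9 CPM in TE10 scramble, a log2 fold change of −0.24 ± 0.0532 (edgeR adjusted p = 0.0001). For each of the 3 genes the libraries of the lines did not overlap, as for 37.8% of genes with Kyse410 higher and 38.3% with Kyse410 lower. IGFBP3 stood at percentile 94.0 of all log2 differences between the lines, IGFBP7 at 80.6 and IGFBP6 at 39.3.

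Ordered by mean over the 4 groups, IGFBP6 was highest in TE10 scramble, then Kyse410 scramble, TE10 shUHRF1 and Kyse410 shUHRF1. IGFBP7 was highest in Kyse410 scramble and lowest in TE10 shUHRF1, and its levels in Kyse410 shUHRF1 (84.0 to 94.7 CPM) and TE10 scramble (87.3 to 97.0 CPM) overlapped. IGFBP3 was highest in Kyse410 shUHRF1, then Kyse410 scramble, while the TE10 groups overlapped at the low end.

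Per length, IGFBP6 was the most abundant member in every group. Divided by exon length, it had 74.6 CPM per kilobase in TE10 shUHRF1 and 108 in TE10 scramble, and 57.9 in Kyse410 shUHRF1 and 91.8 in Kyse410 scramble. IGFBP7 had 24.7 CPM per kilobase in TE10 shUHRF1 and 47.2 in TE10 scramble, and 47.1 in Kyse410 shUHRF1 and 84.7 in Kyse410 scramble. IGFBP3 had 2.75 CPM per kilobase in TE10 shUHRF1 and 3.09 in TE10 scramble, and 12.8 in Kyse410 shUHRF1 and 10.8 in Kyse410 scramble. Among 15589 tested genes with a known length, IGFBP6 was above percentile 95 in all 4 groups, and IGFBP3 lay between percentile 36.4 and 74.7. Exon lengths were taken from an annotation of another genome build than that of the counts, so comparisons of levels between genes are approximate.

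The makeup of the family's RNA followed from these levels. The summed family stood at 102 ± 6.05 CPM per kilobase in TE10 shUHRF1 and 158 ± 7.78 in TE10 scramble, and at 118 ± 5.20 in Kyse410 shUHRF1 and 187 ± 5.31 in Kyse410 scramble (SD, n = 3 each). IGFBP6 made up 73.1% of that sum in TE10 shUHRF1 and 68.2% in TE10 scramble, and 49.1% in Kyse410 shUHRF1 and 49.0% in Kyse410 scramble. IGFBP7 made up 24.2% in TE10 shUHRF1 and 29.8% in TE10 scramble, and 39.9% in Kyse410 shUHRF1 and 45.2% in Kyse410 scramble. IGFBP3 made up 2.70% in TE10 shUHRF1 and 1.96% in TE10 scramble, and 10.9% in Kyse410 shUHRF1 and 5.78% in Kyse410 scramble. The ratio of IGFBP7 to IGFBP3 per length was 9.14 ± 1.64 in TE10 shUHRF1 and 15.4 ± 1.70 in TE10 scramble, and 3.69 ± 0.415 in Kyse410 shUHRF1 and 7.82 ± 0.0967 in Kyse410 scramble. It was lower with shUHRF1 in both lines, which restates the fall of IGFBP7 and, in Kyse410, the rise of IGFBP3.

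An antisense gene, IGFBP7-AS1 (ENSG00000245067.2), moved with IGFBP7. It had 21.5, 21.2 and 14.6 CPM in TE10 shUHRF1, against 40.1, 34.7 and 37.8 CPM in TE10 scramble. In Kyse410 it had 46.6, 44.7 and 46.9 CPM with shUHRF1, against 83.6, 80.8 and 88.4 CPM with scramble. The shUHRF1 libraries lay below the scramble libraries in each line, as for 23.8% of the genes tested in TE10 and 30% in Kyse410. Its log2 fold change was −0.97 ± 0.0991 in TE10 (edgeR adjusted p = 1.06e-11) and −0.87 ± 0.0713 in Kyse410 (edgeR adjusted p = 3.23e-15), beside −0.93 and −0.85 for IGFBP7. The strand setting of the counting is not given, so reads of the genes cannot be told apart where they overlap. A change of IGFBP7-AS1 apart from that of IGFBP7 was not tested. In the reference annotation their exons share 94 bases, which is 4.9% of IGFBP7 and 5.4% of IGFBP7-AS1, and IGFBP7 shares 270 bases, 14.0% of its exons, with POLR2B. With the reads of IGFBP7 and IGFBP7-AS1 summed the log2 fold change was −0.94 in TE10 and −0.86 in Kyse410. The genes changed nearly alike, so their sum had to do so too and does not test how shared reads were assigned. It does not bear on the bases shared with POLR2B.

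**Figure D4:**
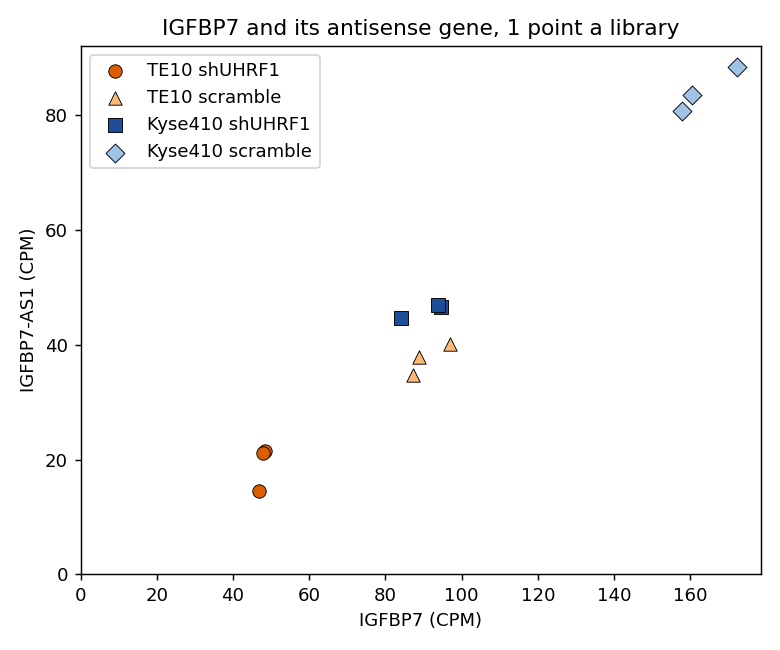
CPM of IGFBP7 (horizontal axis) and IGFBP7-AS1 (vertical axis), 1 point a library, in the 4 groups of 3 libraries. The TE10 shUHRF1 libraries lie lowest on both axes and the Kyse410 scramble libraries highest, with Kyse410 shUHRF1 beside TE10 scramble along the IGFBP7 axis.

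The number of IGFBP7-AS1 reads per IGFBP7 read was 0.400 ± 0.0761 in TE10 shUHRF1 and 0.412 ± 0.0136 in TE10 scramble (SD, n = 3 each), and 0.508 ± 0.0210 in Kyse410 shUHRF1 and 0.516 ± 0.00485 in Kyse410 scramble. Within a line this ratio overlapped between shUHRF1 and scramble libraries, and its means were higher in Kyse410 than in TE10. IGFBP7-AS1 differed between the scramble controls by 1.17 ± 0.0761 on the log2 scale, Kyse410 over TE10 (edgeR adjusted p = 1.18e-19).

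Coding genes near the family members were looked up in the RefSeq annotation of GRCh38.p14. POLR2B, which encodes a subunit of RNA polymerase II and overlaps IGFBP7, had 152, 167 and 158 CPM in TE10 shUHRF1, against 179, 165 and 170.5 CPM in TE10 scramble. It had 63.5, 77.5 and 71.2 CPM in Kyse410 shUHRF1, against 101.5, 111 and 96.3 CPM in Kyse410 scramble. The groups overlapped in TE10 and stood apart in Kyse410, with the shUHRF1 libraries lower, as for 30% of the genes tested. Its log2 fold change was −0.11 ± 0.0547 in TE10 (edgeR adjusted p = 0.108, and 0.0418 in a fit of the TE10 groups alone) and −0.54 ± 0.0594 in Kyse410 (edgeR adjusted p = 5.91e-11), beside −0.93 and −0.85 for IGFBP7. On the far side of POLR2B, 53.2 kb from IGFBP7, NOA1, which encodes a mitochondrial GTPase, was at −0.13 ± 0.0891 in TE10 (edgeR adjusted p = 0.278) and at 0.31 ± 0.0996 in Kyse410 (edgeR adjusted p = 0.00846, and 0.0505 without Kyse410 scramble library 3). IGFBP6 has SPRYD3 at 18.3 kb, which was at −0.08 ± 0.0712 in TE10 (edgeR adjusted p = 0.425) and fell by 0.43 in Kyse410, and SOAT2 at 1.1 kb, which had at most 2 reads in a group. IGFBP1 and IGFBP3 are neighbours, as are IGFBP2 and IGFBP5, and of these 4 only IGFBP3 had more than 8 reads. The next coding gene past IGFBP3 is the tensin gene TNS3, as far away as 1353.9 kb, at −0.03 ± 0.0491 in TE10 (edgeR adjusted p = 0.641) and lower by a log2 fold change of −0.60 in Kyse410. On the outer sides of IGFBP2 and IGFBP5 lie the ribosomal protein gene RPL37A, which was not called in TE10 and fell by 0.23 in Kyse410, and TNP1, with 0 reads. CCDC201, beside IGFBP1, was not matched by symbol. The near-silent IGFBP4 lies between TOP2A, which encodes a topoisomerase of dividing cells, and the tensin gene TNS4, which averaged 432 to 711 CPM and 394 to 775 CPM over the groups. TOP2A was at −0.25 ± 0.0428 in TE10 and 0.72 ± 0.0424 in Kyse410. TNS4 was at −0.27 ± 0.0393 in TE10 and 0.93 ± 0.0377 in Kyse410, and both genes were called in each line.

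The genes most like each member over the 12 libraries were ranked by Pearson's r of log2 CPM among 11121 genes. These libraries share 2 lines and 4 groups, so r describes the group means more than 12 independent samples. IGFBP3 was most like VAPA, a membrane protein of the endoplasmic reticulum (r = 0.994), and KLHDC7B (r = 0.992). KLHDC7B averaged 20.1 CPM in Kyse410 shUHRF1 and 9.84 CPM in Kyse410 scramble but 0.43 CPM in TE10 shUHRF1 and 0.633 CPM in TE10 scramble, so it was ranked only through its level in Kyse410 and its r restates the difference between the lines. IGFBP6 was most like the interferon-induced gene OAS2 (r = 0.984) and the fibronectin gene FN1 (r = 0.980). IGFBP7 was most like PRRC2C (r = 0.992) and the zinc finger gene ZNF558 (r = 0.990). In TE10 the log2 fold changes were −1.33 for OAS2, −0.97 for FN1, −0.47 for PRRC2C and −1.04 for ZNF558, and in Kyse410 they were −1.73, −1.17, −0.36 and −0.79 in the same order.

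Around the binding proteins, 52 genes of the growth factor axis were listed by role, of which 36 were tested. In TE10, 5 were higher and 20 lower with shUHRF1 and 11 were not called (of all genes 18.8% were higher and 20% lower), with a median log2 fold change of −0.30 against 0.00 over all genes. In Kyse410, 14 were higher and 17 lower and 5 were not called (of all genes 22.6% were higher and 26.7% lower), with a median of 0.02 against −0.03 over all genes. For the difference between the lines, 16 were called higher in Kyse410, 6 lower and 14 not called (of all genes 19% were higher and 19.9% lower).

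Of the ligands, IGF1 had at most 1 read in any group and the insulin gene INS at most 7. IGF2 was the only ligand with enough reads to be tested. IGF2 averaged 12.7 ± 1.05 CPM in TE10 shUHRF1 and 10.1 ± 0.134 CPM in TE10 scramble, and 34.1 ± 1.04 CPM in Kyse410 shUHRF1 and 7.17 ± 0.605 CPM in Kyse410 scramble (SD, n = 3 each). It rose by 2.25 ± 0.112 on the log2 scale in Kyse410 (edgeR adjusted p = 1.47e-23), and its response was greater there than in TE10 by 1.93 ± 0.177 (edgeR adjusted p = 4.6e-13). In TE10 its log2 fold change was 0.33 ± 0.133 (edgeR adjusted p = 0.0444). That call was lost without TE10 shUHRF1 library 1 (adjusted p = 0.133) or 3 (0.0547), without TE10 scramble library 1 (0.0843), 2 (0.0792) or 3 (0.101), and without Kyse410 shUHRF1 library 2 (0.0502) or 3 (0.0509), all in edgeR. It was lost as well with no filter on low counts (0.126), with only the TE10 groups (0.068) and in DESeq2 (0.0627). The IGF2 locus shares exons with a read-through gene, so its count is uncertain. Between the scramble controls IGF2 was lower in Kyse410, by a log2 fold change of −0.50 ± 0.138 (edgeR adjusted p = 0.00129).

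The receptors moved in different directions, and of 7 ligand and receptor genes 4 were tested, with 2 higher and 2 lower in each line. Over all genes tested, 18.8% were higher and 20% lower in TE10, and 22.6% and 26.7% in Kyse410. The insulin receptor gene INSR rose by 0.63 ± 0.10 in TE10 (30.7 CPM with shUHRF1, 19.7 CPM with scramble) and by 0.78 ± 0.0901 in Kyse410 (35.0 CPM with shUHRF1, 20.3 CPM with scramble). IGF2R, the scavenger receptor of IGF-II, was at −0.16 ± 0.0402 in TE10 and −0.86 ± 0.0391 in Kyse410, and passed in both. Its responses differed by −0.70 ± 0.0561 (edgeR adjusted p = 4.86e-15). IGF1R, the signalling receptor, fell by 0.35 in TE10, and the response in Kyse410 was higher by 0.24 ± 0.067 (edgeR adjusted p = 0.00284). In Kyse410 IGF1R was at −0.10 ± 0.045 (edgeR adjusted p = 0.0498). That call was lost without TE10 shUHRF1 library 1 (0.118), without TE10 scramble library 1 (0.0574), 2 (0.0542) or 3 (0.0573), without Kyse410 shUHRF1 library 2 (0.131) or 3 (0.325), and without Kyse410 scramble library 1 (0.134), 2 (0.0619) or 3 (0.0927), all edgeR adjusted p. It was lost as well with RLE scaling (0.0907), upper quartile scaling (0.324), no filter (0.122), only the Kyse410 groups (0.129) or DESeq2 (0.133). Between the scramble controls IGF1R was higher in Kyse410 by 0.25 ± 0.0463 and IGF2R by 0.34 ± 0.0386.

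**Figure D5:**
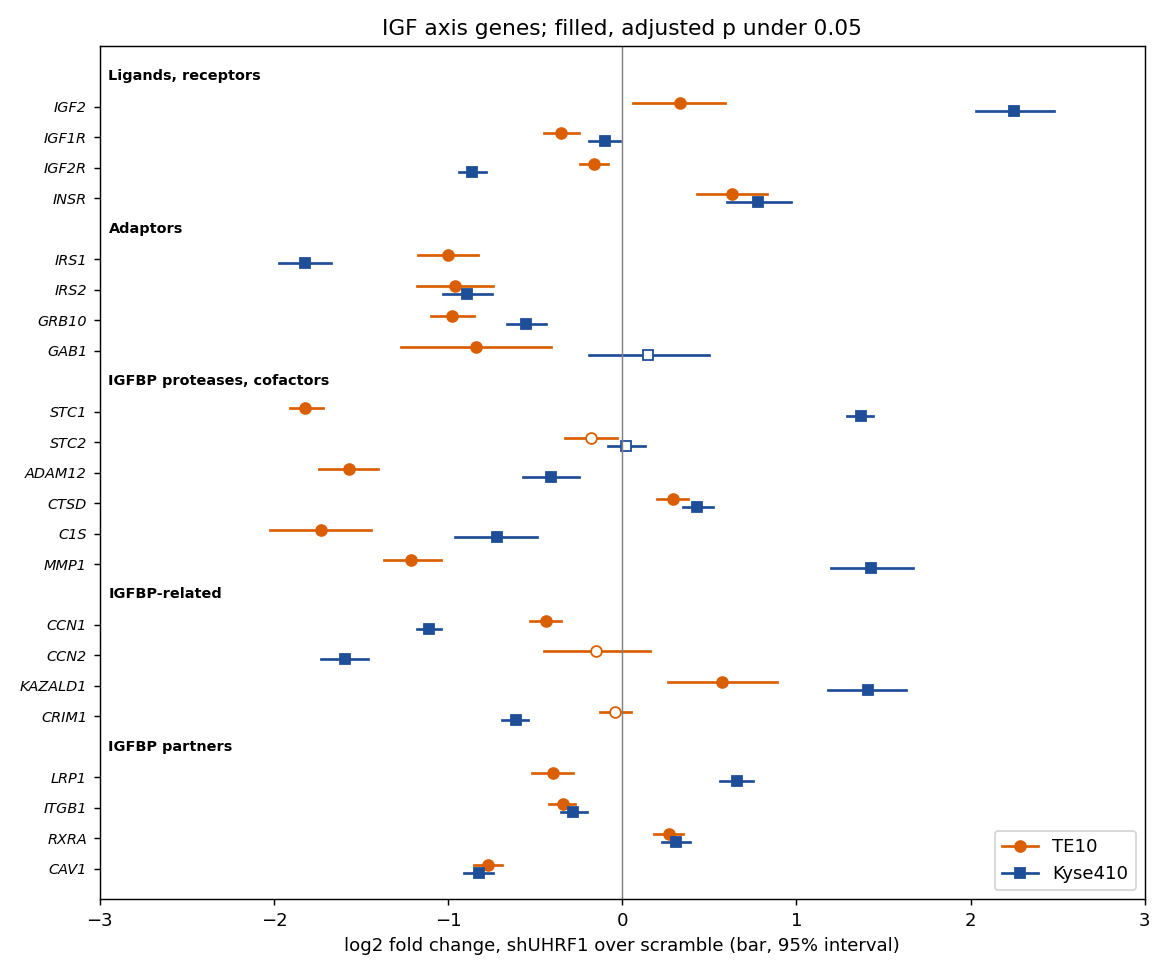
Log2 fold changes with shUHRF1 over scramble (horizontal axis) of named genes of the growth factor axis, with 95% intervals, in TE10 (circles) and Kyse410 (squares); filled symbols passed an adjusted p of 0.05. IGF2 at 2.25 and STC1 at 1.37 lie far right in Kyse410, while STC1 at −1.82 and C1S at −1.73 lie far left in TE10.

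Of 7 adaptors that carry the receptor signal, 5 were tested. TE10 had 0 higher and 4 lower (18.8% and 20% of all genes), and Kyse410 had 1 higher and 3 lower (22.6% and 26.7%). The receptor substrate gene IRS1 fell to 26.7 ± 3.45 CPM in TE10 shUHRF1, against 53.4 ± 3.33 CPM in TE10 scramble, and to 27.4 ± 1.75 CPM in Kyse410 shUHRF1, against 96.2 ± 6.09 CPM in Kyse410 scramble. IRS2 fell to 13.2 ± 0.880 CPM in TE10 shUHRF1, against 25.6 ± 1.41 CPM in TE10 scramble, and to 48.0 ± 5.90 CPM in Kyse410 shUHRF1, against 88.4 ± 4.91 CPM in Kyse410 scramble. GRB10, an adaptor that dampens the signal, fell to 56.8 CPM in TE10 shUHRF1, against 112 CPM in TE10 scramble, and to 77.6 CPM in Kyse410 shUHRF1, against 114 CPM in Kyse410 scramble. GAB1, a docking protein, fell by 0.84 in TE10 and was at 0.15 ± 0.172 in Kyse410 (edgeR adjusted p = 0.492). The median of the adaptors was −0.96 in TE10 and −0.55 in Kyse410.

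Of 19 proteases and cofactors that act on the binding proteins, 13 were tested. TE10 had 1 higher and 7 lower (18.8% and 20% of all genes), and Kyse410 had 5 higher and 4 lower (22.6% and 26.7%). The median of the 13 was −0.37 in TE10 and 0.21 in Kyse410. PAPPA, which encodes PAPP-A and so a protease of IGFBP4, and PAPPA2, a protease of IGFBP5, each had at most 8 reads in a group, and IGFALS, the partner of IGFBP3 in serum, had at most 28. None of these 3 was tested. STC1, a stanniocalcin that inhibits PAPP-A, was at 78.1 ± 0.620 CPM in TE10 shUHRF1 and 275 ± 11.1 CPM in TE10 scramble, and at 650 ± 12.4 CPM in Kyse410 shUHRF1 and 252 ± 4.61 CPM in Kyse410 scramble. It fell by 1.82 in TE10 and rose by 1.37 in Kyse410, a difference of 3.19 ± 0.0602 (edgeR adjusted p = 2.34e-41). The related STC2 was at −0.18 ± 0.0753 in TE10 (edgeR adjusted p = 0.0504) and 0.02 ± 0.0512 in Kyse410 (edgeR adjusted p = 0.746). In TE10 it passed without TE10 shUHRF1 library 3 (adjusted p = 0.0141), Kyse410 shUHRF1 library 1 (0.0396) or Kyse410 shUHRF1 library 2 (0.0494), and with upper quartile scaling (0.0455), no filter (0.0425) or the replicate block (0.0358). In Kyse410 its sign changed, to −0.02, without Kyse410 shUHRF1 library 1.

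The 4 other proteases named had the smallest adjusted p of the rest of the list of proteases and cofactors. MMP1 among them changed in opposite directions in the lines, and ADAM12, C1S and CTSD changed in the same direction in both. HTRA1, from the same list, was also called in opposite directions. Its log2 fold change was −0.35 ± 0.0884 in TE10 and 0.26 ± 0.0806 in Kyse410 (edgeR adjusted p = 0.0011 and 0.00609). MMP1, an interstitial collagenase that can cut IGFBP3, fell by 1.21 ± 0.0832 in TE10 and rose by 1.43 ± 0.117 in Kyse410, a difference of 2.64 ± 0.143 (edgeR adjusted p = 1.78e-21). ADAM12, which cuts IGFBP3 and IGFBP5, fell in both lines, with log2 fold changes of −1.57 ± 0.084 in TE10 and −0.41 ± 0.0798 in Kyse410. The complement protease gene C1S, whose product cuts IGFBP5, was at −1.73 ± 0.144 in TE10 and −0.72 ± 0.119 in Kyse410 and passed in both. CTSD, the lysosomal protease cathepsin D, rose by 0.29 ± 0.0436 in TE10 and by 0.43 ± 0.0415 in Kyse410.

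Of 11 proteins with an IGFBP-like domain, 7 were tested. TE10 had 1 higher and 2 lower (18.8% and 20% of all genes), and Kyse410 had 3 higher and 4 lower (22.6% and 26.7%). The median of the 7 was −0.04 in TE10 and −0.61 in Kyse410. The matricellular gene CCN1 fell by 0.44 ± 0.0448 in TE10 and by 1.11 ± 0.0365 in Kyse410, where it averaged 492 CPM with shUHRF1 and 1061 CPM with scramble. CCN2, connective tissue growth factor, was at −0.15 ± 0.152 in TE10 (edgeR adjusted p = 0.476) and fell by 1.59 ± 0.0693 in Kyse410, a difference of −1.45 ± 0.171 (edgeR adjusted p = 7.82e-10). KAZALD1 rose by 0.57 ± 0.158 in TE10 and by 1.41 ± 0.112 in Kyse410. CRIM1, a transmembrane protein with an IGFBP-like motif, was at −0.04 ± 0.0429 in TE10 (edgeR adjusted p = 0.485) and fell by 0.61 ± 0.0384 in Kyse410. Between the scramble controls CCN1 was higher in Kyse410 by 2.45 ± 0.04 and CCN2 by 3.69 ± 0.0929 on the log2 scale. IGFBP3 and IGFBP7 were higher there too, and IGFBP6 was lower. Among the 7 tested genes with the domain, 5 were higher in Kyse410 and 1 was lower, CCN3, at −1.91 ± 0.19 (of all genes 36.7% were higher and 37.1% lower).

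Of 8 partners that bind IGFBPs on or in cells, 7 were tested. TE10 had 1 higher and 5 lower (18.8% and 20% of all genes), and Kyse410 had 3 higher and 4 lower (22.6% and 26.7%). The median of the 7 was −0.26 in TE10 and −0.17 in Kyse410. LRP1, an endocytic receptor for IGFBP3, was at −0.40 ± 0.0588 in TE10 and 0.66 ± 0.0475 in Kyse410 and passed in both, a difference of 1.06 ± 0.0755 (edgeR adjusted p = 9.26e-17). The integrin gene ITGB1 fell by 0.34 ± 0.0375 in TE10 and by 0.28 ± 0.0365 in Kyse410. The caveolin gene CAV1 fell by 0.77 ± 0.0408 and 0.82 ± 0.0414 in the same order of lines, and RXRA, a nuclear receptor that IGFBP3 binds, rose by 0.27 ± 0.0419 and 0.31 ± 0.0398.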

How the data were processed

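Polyadenylated RNA was sequenced in 12 libraries. The deposited values are raw counts of reads per gene, 1 file a library. Per the submitters' processing notes, the build was GRCh37.p13 and the tools were HISAT2 2.1.0, HTSeq 0.9.1, bcl2fastq 2.19 and DESeq2. Not given in the sources used here are the annotation release and the strand setting. Counter rows that name no gene were left out. They hold 42.88 to 44.66% of reads with no feature and 1.38 to 1.98% ambiguous reads. Of 57820 identifiers, 52339 were matched to symbols in GENCODE, with 99.03% of gene reads, and UHRF1 was matched by its identifier. The GENCODE annotation is of GRCh38, so it gave only names, exon lengths, shared exon bases and, through RefSeq, neighbours and promoters.

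The counts were fitted with edgeR 4.0.16 and limma 3.58.1 (R 4.3.3). filterByExpr by group kept 16060 genes, TMM scaled the libraries, and 1 quasi-likelihood fit of 4 group means had 8 residual degrees of freedom. Benjamini-Hochberg adjustment ran over these 16060 genes, and an adjusted p under 0.05 made a call. The limit for a count of 0 is 3 reads. Fold changes are log2, with their SE. Tables and figures used matplotlib 3.10.9, SciPy 1.17.1, numpy 2.4.6 and pandas 2.3.3 in Python 3.11.15. The fit was tested on simulated data. DESeq2 1.42.0, other scalings, no filter, a fit of the compared groups alone, a replicate block and leaving out each library were alternatives. Summing IGFBP7 with IGFBP7-AS1 was added after seeing the data.

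The members and the lists were chosen with earlier results of these data known. Named were the 7 members, UHRF1, IGF1, IGF2, IGF1R, IGF2R, INSR, PAPPA, PAPPA2, STC1, STC2 and IGFALS whatever their values. Up to 4 more genes of each list had the smallest adjusted p among those called in a knockdown comparison. HTRA1 and CCN3 were named outside this rule, with their values known. The 2 genes most like each member had a mean of at least 5 CPM, with r on log2 CPM at a prior count of 2. The nearest coding genes in RefSeq were named as well, except LOC124900173, 4088.7 kb from IGFBP7. POLR2B, which overlaps IGFBP7, was added after seeing the data. Replicates of a group differed by a chi-square of 1.58 to 3.07 per degree of freedom, so none was taken for a repeat of another.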

Additional observations from a re-analysis of the deposited data

Results flagged for a closer look

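The response to the hairpin differed between the lines, by the edgeR test of the difference itself, for 1 member and 15 other named genes of the axis. Each value is the log2 response in Kyse410 minus that in TE10, with its SE. IGFBP3 differed by 0.40 ± 0.15 (adjusted p = 0.0275). Responses more positive in Kyse410 were those of IGF2 (1.93 ± 0.177), IGF1R (0.24 ± 0.067), GRB10 (0.42 ± 0.0837), GAB1 (0.99 ± 0.275), STC1 (3.19 ± 0.0602), ADAM12 (1.17 ± 0.117), C1S (1.01 ± 0.191), MMP1 (2.64 ± 0.143), KAZALD1 (0.83 ± 0.196) and LRP1 (1.06 ± 0.0755). Responses more negative in Kyse410 were those of IGF2R (−0.70 ± 0.0561), IRS1 (−0.82 ± 0.115), CCN1 (−0.67 ± 0.0578), CCN2 (−1.45 ± 0.171) and CRIM1 (−0.57 ± 0.0576). The largest edgeR adjusted p among these 16 genes was that of IGFBP3. Of all genes tested, 38.9% were called for such a difference. Apart from IGF2, IGF1R, IGF2R and STC1, the 15 other genes were named for a small adjusted p in a knockdown comparison. Their count therefore does not describe the axis, where 16 of the 36 genes tested were called higher and 6 lower.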

How the results depend on the processing

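IGFBP6 and IGFBP7 kept their direction and their call in both knockdown comparisons and between the scramble controls under every alternative run, with log2 fold changes of −0.59 to −0.48 and −0.96 to −0.89 in TE10 and −0.69 to −0.61 and −0.88 to −0.77 in Kyse410. The count of members called was 2 in TE10 and 3 between the controls in every setting, and 2 to 3 in Kyse410 and 0 to 1 for the difference between lines when single libraries were left out. IGFBP3 in Kyse410 ranged from 0.19 to 0.30 (adjusted p 0.00133 to 0.0659) and its difference between lines from 0.28 to 0.52 (adjusted p 0.00806 to 0.169), in edgeR and DESeq2. Of the members' fold changes under alternatives, 211 kept their side of the threshold and 6 lost the call, all of them for IGFBP3. UHRF1's difference between lines ranged from −0.20 to −0.14 when single libraries were left out, and passed without TE10 shUHRF1 library 1 (edgeR adjusted p = 0.0483). Signs turned for RPL37A in TE10 (−0.02 to 0.08 with single libraries left out, negative without TE10 shUHRF1 library 3 or TE10 scramble library 1), for STC2 in Kyse410 (−0.02 to 0.06 with single libraries left out, negative without Kyse410 shUHRF1 library 1), for the difference of IRS2 (−0.03 to 0.17, negative without Kyse410 shUHRF1 library 3) and for that of CAV1 (0.00 with upper quartile scaling), none of which was called; the cause was not tested. Other scalings moved the median of all genes by under 0.1. No pairing by replicate number was seen, with correlations of −0.05 to 0.04 between the deviations of same-numbered libraries. Differently numbered libraries had −0.06 to 0.04, and a weak pairing is not excluded by these values. With the replicate block 6319 genes were called in TE10 and 7975 in Kyse410, against 6231 and 7921 without it, and IGFBP7 was at −0.93 and −0.85; no member changed its call.

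Depth limits IGFBP1, IGFBP2, IGFBP4 and IGFBP5, and a count of 0 allows up to 0.244 to 0.398 CPM a library. The unknown strand setting limits IGFBP7, and levels per length rest on exon lengths of another build. Each group is 3 libraries of 1 line, and effects of a hairpin other than on UHRF1 cannot be told apart from those of the loss of UHRF1.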
